A study of Caenorhabditis elegans with 2 samples.

Results

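SUP-37 regions were described around 4 genes of the nematode Caenorhabditis elegans, pha-1, sup-35, sup-36 and ari-1.1, out of 19973 protein-coding genes on the 6 nuclear chromosomes. The genes were chosen by name, as parts of the genetic pathway through which sup-37 was found, and each was matched to 1 gene of the annotation. Every listed summit inside the gene or within 5000 bp of either end was taken, whatever its strength. The data are chromatin immunoprecipitation with sequencing (ChIP-seq) of SUP-37 from whole L1 larvae, the first larval stage, aged 6 hours and starved since bleaching, with both sexes pooled. There was 1 group of 2 biological replicates, replicate 1 and replicate 2, and each supplied a list of 30000 peak and background regions. The pool of both replicates supplied a further 30000. The authors kept 924 peaks by irreproducible discovery rate (IDR), a filter on how alike replicates rank their peaks. These were the 924 strongest pooled regions, so a kept peak can rank low in 1 replicate. The strain of both replicates, OP611, has the mutation unc-119(tm4063) and the transgene wgIs611, which adds sup-37 joined to the tags TY1, EGFP and 3xFLAG together with unc-119(+). The precipitation is said to have used an antibody against GFP, although another label names sup-37 as the antibody. No strain without the transgene and no control library was analysed here, and the lists hold whole-animal signal, so a site used in few cells cannot be told apart from a site used weakly in many.

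In the laboratory strain of this worm, sup-35 and pha-1 lie close together and act as a toxin and its antidote. SUP-35 is toxic to the embryo unless PHA-1 is made, and pha-1 mutants die with a malformed pharynx. Loss of sup-35, sup-36 or sup-37 lets pha-1 mutants live. The Ariadne-type ubiquitin ligase ARI-1.1 acts to limit SUP-35, and LIN-35, the worm retinoblastoma protein, is known from genetics to hold down sup-35 transcription in parallel. SUP-37 is a zinc finger protein. The members are described below in the order toxin, antidote, the further suppressor and the ubiquitin ligase.

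The toxin gene sup-35 was the member with IDR peaks, and it had 2 of them. Ranks are by the authors' signal within each list, with rank 1 the strongest. The gene (WBGene00012976) spans 11115754 to 11119226 on the minus strand of chromosome III in build ce11 (WBcel235), and positions are 1-based. The upstream peak (11119317 to 11119700) lay between genes, with its pooled summit 283 bp from the sup-35 5′ end. It lay 294 bp upstream of Y48A6C.4, the gene transcribed in the opposite direction, so it is about equally near to both. This peak ranked 1046 in replicate 1 and 362 in replicate 2, and 536 in the pool, with authors' signals of 67.7 in replicate 1, 86.1 in replicate 2 and 151 in the pool. Signals are on each list's own scale, which is not stated, and were not compared between lists. The replicate summits were 38 bp apart, the replicate 2 summit being nearer to sup-35. The site was thus listed in both replicates, inside the 924 strongest regions in replicate 2 and outside them in replicate 1. The authors' q value for it, given as −log10 so that a higher value is a smaller q, was 0.79 in replicate 1 and 3.04 in replicate 2. The lists include background regions, so being listed in a replicate is not by itself evidence of binding.

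The downstream peak (11110741 to 11111124) lay 4821 bp beyond the 3′ end of sup-35, in an intron of the pseudogene WBGene00012975 (Y48A6C.2 in RefSeq) that overlaps the end of sup-35. It ranked 442 in replicate 1 and 1121 in replicate 2, and 608 in the pool, with authors' signals of 95.7, 50.3 and 142. The replicates thus stood in the opposite order at the 2 sites: replicate 1 ranked the downstream site higher and replicate 2 the upstream site. Rank differences of this size were common, as 27.9% of the 201 pooled regions ranked within 100 of the upstream peak, and 31.3% of those within 100 of the downstream peak, had replicate ranks at least as unequal. The pooled summit is near the edge of the 5000 bp window, and a window of 2000 bp leaves only the upstream peak. Among all protein-coding genes, 1.75% had 2 or more IDR summits in a window drawn the same way. The toxin gene's strongest replicate ranks, 442 and 362, came from different sites. The −log10 q value of the downstream peak was 1.90 in replicate 1 and 1.92 in replicate 2.

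The sequences are the 201 bases centred on each IDR summit and the 201 bases before the annotated 5′ end of pha-1. The pooled list had no region in the pha-1 promoter window. The sup-35 windows were placed by summits and the pha-1 window by annotation, so they are not matched. Whether transcription of pha-1 starts at its annotated 5′ end was not tested. All sequences are from the reference genome in the direction of transcription of the named gene. Capitals mark E2F-type words (TTCCCGC or TTGGCGC or TTCGCGC or TTGCCGC), words of the cell cycle homology element (TTTGAA or TTCGAA), and 6 words that were most over-represented at IDR summits (GCGCGC or GCACGC or CGCGCG or GACGCA or ACGCGC or CGCGCC), each on either strand. The cell cycle homology element is known to be bound by DREAM, a protein complex that contains LIN-35.
sup-35 upstream peak, chrIII:11119409-11119609, minus strand: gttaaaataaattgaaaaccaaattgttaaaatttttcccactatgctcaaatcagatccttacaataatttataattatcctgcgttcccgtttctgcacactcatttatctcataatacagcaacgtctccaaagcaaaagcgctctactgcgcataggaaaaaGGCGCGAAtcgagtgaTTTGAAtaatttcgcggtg
sup-35 downstream peak, chrIII:11110833-11111033, minus strand: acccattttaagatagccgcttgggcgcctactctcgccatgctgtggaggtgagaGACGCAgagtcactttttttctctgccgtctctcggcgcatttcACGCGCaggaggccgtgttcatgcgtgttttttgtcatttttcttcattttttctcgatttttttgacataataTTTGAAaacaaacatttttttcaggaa
pha-1 upstream, chrIII:11131574-11131774, plus strand: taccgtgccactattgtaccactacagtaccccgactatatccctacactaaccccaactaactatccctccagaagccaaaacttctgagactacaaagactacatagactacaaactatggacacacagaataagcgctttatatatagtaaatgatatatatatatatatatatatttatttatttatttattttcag

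The upstream peak of sup-35 held 1 E2F-type word, read as GCGCGAA on the printed strand, starting 67 bp past the summit towards sup-35 and overlapping a match to CGCGCC. The word TTTGAA followed, 82 bp past the summit. E2F-type words were found in 17% of windows of this length at IDR summits and in 6.31% of windows before protein-coding 5′ ends, and words of the cell cycle homology element in 39.1% and 56.2%. The downstream peak held no E2F-type word, but held ACGCGC starting at the summit itself, GACGCA 44 bp before it and TTTGAA 74 bp past it. At least 1 of the 6 summit words was present in 52.1% of IDR windows and 14.9% of windows before 5′ ends. These words were counted in the same 924 peaks, both sup-35 peaks included, so their presence there is no separate observation. The pha-1 window held none of the words. The GC content was 36.3% in the upstream peak, 43.3% in the downstream peak and 32.8% before pha-1, beside medians of 45.3% at IDR summits and 32.8% before 5′ ends. None of the 353 32-base words of the upstream region, and 14 of the 353 of the downstream region, occurred elsewhere in the genome.

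Around these peaks, sup-35 had weaker regions. The pooled list held 7 regions in its window, replicate 1 held 8 and replicate 2 held 6. A second upstream region, 498 bp from the 5′ end and only 79 bp from that of Y48A6C.4, ranked 11196 in replicate 1, 25370 in replicate 2 and 12566 in the pool. A further region in the pseudogene, 2745 bp beyond the 3′ end of sup-35, ranked 8767 in replicate 1, 3705 in replicate 2 and 2892 in the pool. No region had its summit inside the sup-35 gene. Of 686 other genes with an IDR promoter summit, those with a promoter region in both replicates were compared with sup-35. Apart from Y48A6C.4, which shares the peak, the promoters nearest by their 2 replicate ranks were those of zip-4 and crh-1. The first is a bZIP transcription factor gene (1001 in replicate 1 and 375 in replicate 2), and crh-1 is the CREB homologue (980 and 424). Likeness was the distance in log10 rank over the 2 replicates, 0.0245 for zip-4 and 0.0743 for crh-1.

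**Figure D1:**
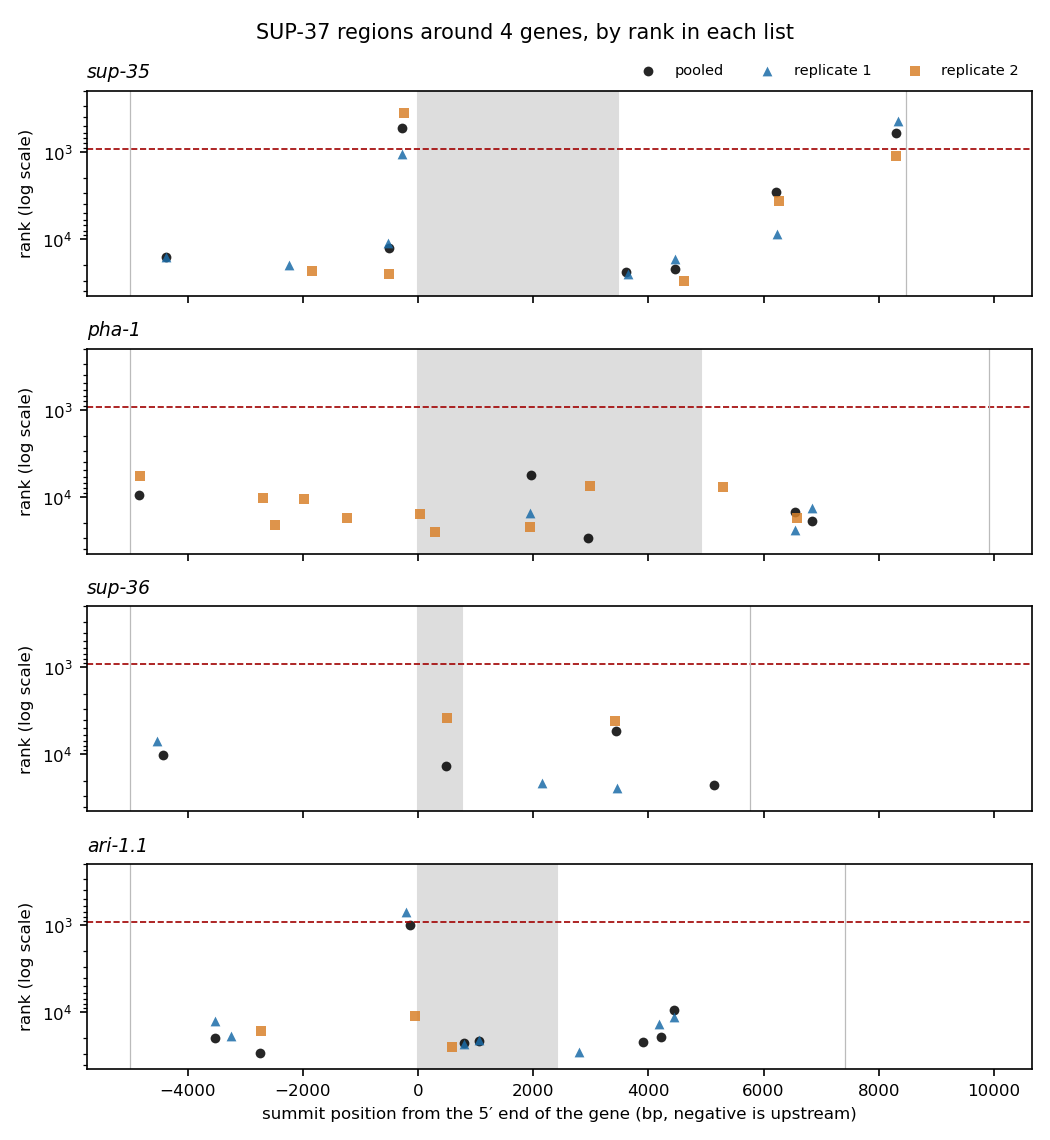
Rank (vertical, log scale, strongest at the top) of every region listed in the pool (circles), replicate 1 (triangles) and replicate 2 (squares), against the distance of its summit from the 5′ end of each gene in bp. Grey bands are the genes, thin lines the window limits, and the dashed line rank 924, where the IDR list ends. sup-35 has pooled summits above that line at 283 bp upstream (rank 536) and 8293 bp downstream of its 5′ end (rank 608), ari-1.1 has its strongest just below it (rank 997), and the other genes have none near it.

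The antidote gene pha-1 had no IDR peak and no pooled region at its promoter. The gene (WBGene00004010) spans 11131775 to 11136688 on the plus strand of chromosome III. Its promoter window, 1000 bp upstream to 200 bp downstream of the 5′ end, held no region in replicate 1 and 1 in replicate 2, at rank 15661, 37 bp into the first coding exon. The strongest pooled region of pha-1, in an intron 1960 bp into the gene, ranked 15353 in replicate 1, 22273 in replicate 2 and 5694 in the pool, with summits 2 bp apart in the replicates. It was therefore listed in both replicates, but among the weaker ones in each. Its −log10 q value was 0.278 in replicate 1 and 0.242 in replicate 2. Of the 353 32-base words of that region, 28 occurred elsewhere in the genome. The strongest region of replicate 2, at rank 5724, lay 4834 bp upstream in an exon of Y48A6C.8 and had no counterpart in replicate 1. The strongest of replicate 1, at rank 13367, lay in an intron of the neighbouring gene fbxa-128 and had none in replicate 2.

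The number of regions listed around pha-1 differed between the replicates, with 3 in replicate 1, 11 in replicate 2 and 5 in the pool. An excess of 8 or more in replicate 2 was seen at 59 of all protein-coding genes (0.295%). The gene was singled out for this count after its values were seen. Of the 11 regions in replicate 2, 2 had a replicate 1 summit within 200 bp. All 11 ranked below 5000, so the count is one of weak regions.

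The suppressor gene sup-36 also had no IDR peak and no region at its promoter in any list. It is a short gene (WBGene00018164, chromosome IV, 6601674 to 6602443, plus strand). Its strongest pooled region lay 3432 bp downstream of the 5′ end, in a coding exon of nstp-2, and ranked 24044 in replicate 1, 4115 in replicate 2 and 5345 in the pool. The −log10 q value of that region was 0.257 in replicate 1 and 0.606 in replicate 2. A region inside sup-36 itself, in coding sequence 492 bp from the 5′ end, lay about equally near to F15B10.3, 510 bp upstream of it. This region ranked 3819 in replicate 2 and 13562 in the pool and had no counterpart in replicate 1. The strongest region of replicate 1, at rank 7054, lay 4531 bp upstream in a coding exon of F38A5.6 and had none in replicate 2. The replicates thus did not share a strong site here. Of its 3 regions in replicate 1 and 2 in replicate 2, 1 site was in both. The 201 bases before its 5′ end held 1 of the summit words, ACGCGC, and no E2F-type word.

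The ligase gene ari-1.1 had a promoter region that just missed the IDR list and stood out in 1 replicate only. The gene (WBGene00016158) spans 6058548 to 6060953 on the minus strand of chromosome I. The region, between genes and with its pooled summit 141 bp from the 5′ end, ranked 712 in replicate 1, 11097 in replicate 2 and 997 in the pool. Its pooled signal was 112, while the weakest IDR peak had 116, and its −log10 q value, the authors' own, was 1.25 against 1.43 for that peak. In the single replicates that value was 1.24 in replicate 1 and 0.35 in replicate 2. The summits lay 205 bp upstream in replicate 1 and 57 bp upstream in replicate 2, so they count as shared at 200 bp and not at 50 bp. Of the 201 pooled regions ranked within 100 of it, 26 (12.9%) had replicate ranks at least as unequal, and 11 were as weak or weaker in replicate 2, itself included. None of the 353 32-base words of this region occurred elsewhere in the genome.

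Other regions around ari-1.1 were weak. The pooled list and replicate 1 each held 8 regions in its window, and replicate 2 held 3. The next strongest pooled region ranked 9473 and lay in an intron of ari-1.2, the neighbouring Ariadne gene downstream. Of the 3 regions in replicate 2, only the promoter region had a replicate 1 counterpart within 200 bp. The genes ari-1.2 and ari-1.3, which follow ari-1.1 on the same strand, had no IDR peak at their promoters, and ari-1.2 had no promoter region in any list.

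Set side by side, sup-35 was the only member with an IDR summit in its window, 1 of 4, while 11.3% of all protein-coding genes had one. The same gene was the only member with an IDR summit in its promoter window, beside 3.44% of all genes. A promoter region of any rank in the pool was found at 2 members, sup-35 and ari-1.1, beside 35% of all genes, and a pair of replicate summits within 200 bp at the promoter at the same 2, beside 15.2% of all genes. With 4 genes these counts say little about the members as a group, and the exact 95% binomial interval on 1 of 4 runs from 0.631% to 80.6%. That interval treats the genes as random draws, which genes chosen by name are not. Windows grow with the gene, and the members' median window was 12940 bp, beside a median of 12027 bp over all genes.

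By the strongest pooled region in the window the order was sup-35 (536), ari-1.1 (997), sup-36 (5345) and pha-1 (5694). Regions of that rank or better were found at 7.48% of protein-coding genes for sup-35, 12% for ari-1.1, 43.4% for sup-36 and 45.4% for pha-1, so sup-36 and pha-1 lay in the middle of the genome's genes. The members' median was 3171 and that of all genes 6513. In single replicates the strongest region of sup-35 ranked 442 and 362, better than that of any other member in either replicate. The pairs of the others overlapped, with 712 and 11097 for ari-1.1, 7054 and 3819 for sup-36, and 13367 and 5724 for pha-1 in replicates 1 and 2. Their order is therefore not larger than the spread between the replicates. At the promoter alone, the sup-35 region was matched or exceeded at 2.27% of genes in the pool, 3.22% in replicate 1 and 1.70% in replicate 2, and that of ari-1.1 at 3.62%, 2.47% and 17.6%.

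**Figure D2:**
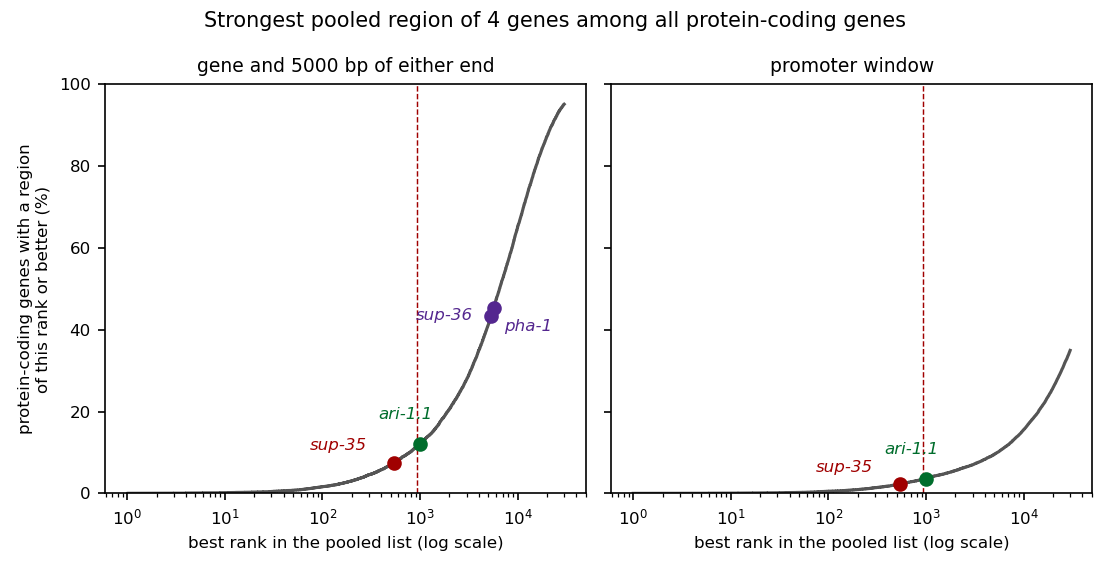
Percentage of all protein-coding genes whose strongest pooled region has the rank on the horizontal axis (log scale) or better, in the gene and 5000 bp of either end (left) and in the promoter window (right), with the members marked. The dashed line is rank 924. sup-35 and ari-1.1 sit at the low end on the left (7.48% and 12%) while sup-36 and pha-1 sit at 43.4% and 45.4%, and only sup-35 and ari-1.1 have a point on the right.

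The choice of replicate decided which member counted as bound at the promoter. With the 924 strongest regions of replicate 2 alone it was sup-35, and with those of replicate 1 alone it was ari-1.1, since sup-35 ranked 1046 there. The shares of all genes with such a promoter region were 3.57% and 2.94%. With the 5000 strongest pooled regions both genes counted, beside 9.55% of all genes, and with the stronger 462 IDR peaks neither did. At none of these settings did pha-1 or sup-36 count.

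**Figure D3:**
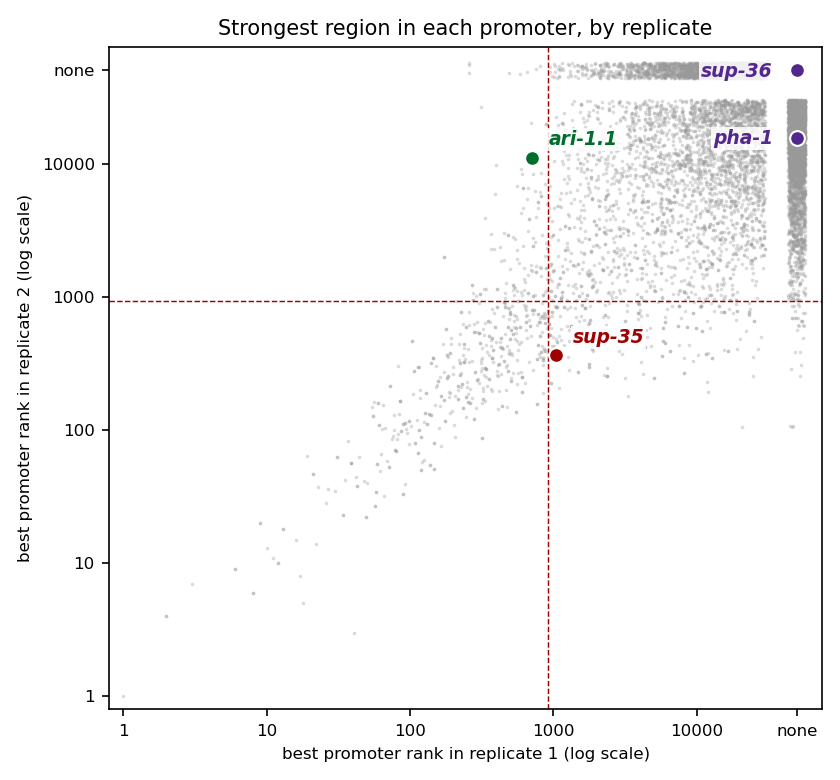
Best rank of a region in the promoter window in replicate 1 (horizontal) and replicate 2 (vertical), both on log scales, for each protein-coding gene with a region in at least 1 replicate (grey), with none listed placed at the end of each axis and the members in colour. Dashed lines mark rank 924. sup-35 (1046 and 362) and ari-1.1 (712 and 11097) lie on opposite sides of these lines, pha-1 has a region in replicate 2 only (15661), and sup-36 has none.

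Taking the windows as wholes, the members held 24 pooled regions, 22 in replicate 1 and 22 in replicate 2, and 2 IDR peaks. These came to 4.65 regions per 10 kb in the pool and 4.27 in each replicate, with 2.99 per 10 kb over the genome in each list. The genome figure is not limited to windows around genes. Per gene window, the members' medians were 6 in the pool, 5.5 in replicate 1 and 4.5 in replicate 2. The median over all protein-coding genes was 4 in each list. Most regions of the members were weak, with 4 of the 24 pooled regions among the 5000 strongest. Of the 24 pooled summits, 9 lay in coding exons, 7 in introns of protein-coding genes, 4 in pseudogene introns and 4 in intergenic sequence. Of the 22 regions of replicate 1, 9 (40.9%) had a replicate 2 summit within 200 bp, beside 33.8% of all 30000. Among regions ranked below 15000 the share was 4 of 12 for the members and 26.1% for the whole list, and among the 924 strongest it was 2 of 2 and 91.3%. By gene, sup-35 had 5 of the 9 shared sites, pha-1 had 2, and sup-36 and ari-1.1 had 1 each. At the limit of the windows, the outermost pooled summits inside were 4849 bp from pha-1 (rank 9481) and 4821 bp from sup-35 (rank 608), and the nearest outside were 5071 bp from ari-1.1 (rank 22752) and 5152 bp from pha-1 (rank 18925).

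**Figure D4:**
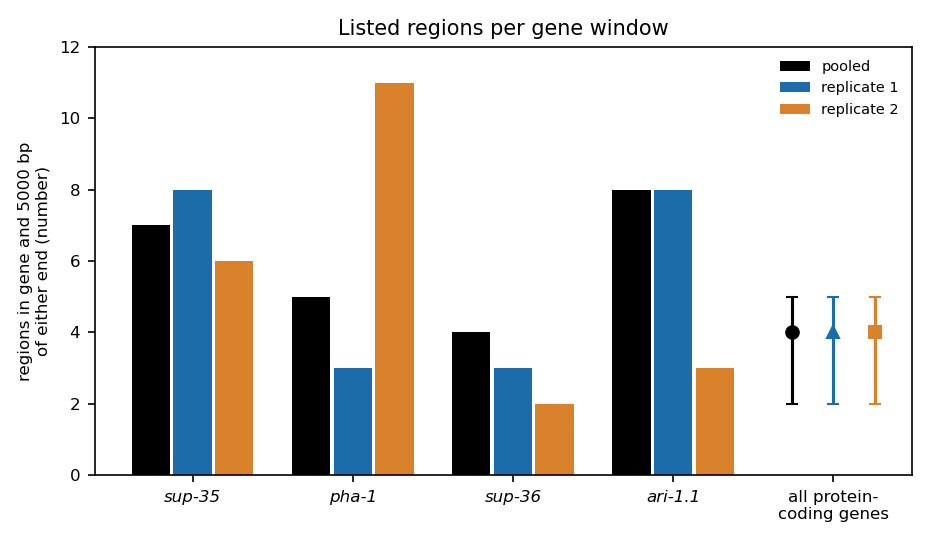
Number of regions listed in the gene and 5000 bp of either end for each member (bars, from 0) in the pool, replicate 1 and replicate 2, with the median (symbol) and quartiles (whiskers) over all protein-coding genes at the right. The median over all genes is 4 in each list, pha-1 has 3 in replicate 1 and 11 in replicate 2, and ari-1.1 has 8 and 3.

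Other genes, from lists drawn up around the pathway, included several with stronger promoter peaks than any member. Of 9 genes of the Rb and DREAM group with hcf-1, 5 had an IDR promoter summit, beside the 3.44% of all genes. They were lin-54 (rank 49 in replicate 1, 22 in replicate 2 and 32 in the pool), lin-9 (66, 32 and 41), lin-53 (59, 55 and 59), efl-1, an E2F gene (182, 245 and 179), and lin-35 (217, 213 and 217). DREAM is a repressor complex of LIN-35 with E2F proteins. Of these peaks, that of lin-54 lay 13 bp upstream of rpl-12 and 380 bp upstream of lin-54, that of lin-35 lay nearer to vps-51, and that of lin-53 was 231 bp from its 5′ end and 236 bp from that of nra-2. The promoters of dpl-1, lin-37, lin-52 and hcf-1 had none. Of 14 other Ariadne and cullin-RING ligase genes, 1 had an IDR promoter summit, namely cul-4 (15657 in replicate 1, 401 in replicate 2 and 818 in the pool). None of slr-2, fzr-1 and xnp-1, found as synthetic with lin-35, had one, nor had pha-4, the pharynx organ identity gene, and psa-1 was not matched to a gene name. The lists were chosen with earlier results of these data known, and no test was made of them.

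The gene of the precipitated protein, sup-37, had no region within 5000 bp in any list. The same was true in the pool of 964 protein-coding genes (4.83%). The nearest pooled summits left a gap of 42835 bp around sup-37, and 17 of 29994 gaps between neighbouring pooled summits were at least as wide. The transgene of the strain also holds sup-37. The lists cannot tell a locus that was not bound from one left out in processing, and this was not tested.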

How the data were processed

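The authors called peak and background regions on each replicate and on the pool, against 2 control alignments, and made an IDR-thresholded list from these, all on ce11, per the deposited descriptions. No source used here names the aligner, the caller or the IDR cutoff. Each region's deposited signal value is the authors' score of its strength, on an unstated scale, and was used only to rank regions within a list. The authors also deposited q values, as −log10, and each summit's offset within its region. The IDR peaks were the 924 strongest pooled regions. The lists give no read counts, so depth per library is unknown.

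Gene positions came from Ensembl release 115 (WBcel235) and sequence from the RefSeq copy of that assembly, in which no region ran past a chromosome end and 99.8% of 24297 annotated start codons read ATG. A promoter window ran from 1000 bp upstream to 200 bp downstream of the outermost 5′ end, and summits within 200 bp counted as 1 site. These 5′ ends are those of the annotation, and whether they are transcription starts was not tested. Summit words were the 6 6-base words with the largest ratio between the 101 bp around IDR summits and around positions 400 bp to either side, among words in at least 5% of summit windows. Scripts in Python 3.11.15 with pandas 2.3.3 were tested on simulated data. With 1 group, no comparison between conditions was made and no p-value is given. Replicates are labelled biological, and nothing more is said of their source. The binomial interval covers counting error only, as if the members were random draws. The rule named the members, the genes holding or nearest to their strongest pooled or IDR summits, and the 3 promoters most like sup-35. It also named genes with an IDR promoter summit from the lists drawn up around the pathway. Other genes named hold or adjoin a described region, or are genes of those lists without such a summit. These other genes were chosen after their values were seen. The members, lists and rules were chosen with earlier results of these data known. 1 further gene of the pathway is not reported here.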

Additional observations from a re-analysis of the deposited data

How the results depend on the processing

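Of 32 alternative values, 20 stayed within 1.5 times the reported count or within 1 SD of the replicates' ranks. For ranks, that SD came from the same 2 replicate ranks that were judged by it, so replicates far apart pass more easily. The ranks of sup-36, 7054 and 3819 beside 5345 in the pool, stayed within it. Those of sup-35, 442 and 362 beside 536, did not. The count of 20 therefore describes these settings and does not measure how robust the results are. The count of 1 member with an IDR summit in its window became 0 with the gene body alone or the stronger 462 peaks and 2 with the 5000 strongest pooled regions, and ranged from 1 to 2 with single replicates. The promoter count became 0 with the stronger 462 peaks and 2 with the 5000 strongest, and was 1 with each single replicate, from a different gene each time. Members with a replicated promoter pair went down to 1, sup-35, at 50 bp. The 9 replicated sites in the windows became 2 within the 5000 strongest of each replicate. Ranks in single replicates ran from 362 to 442 for sup-35, 5724 to 13367 for pha-1 and 712 to 11097 for ari-1.1. A promoter rank could not be given for pha-1 or sup-36 in the pool. No paired analysis was possible because the series holds 1 group. The unknown depth limits every statement that a region is missing from a list.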
